A study of Homo sapiens with 12 samples.

Results

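The genes described here are 36 genes of the tricarboxylic acid (TCA) cycle and of the keto acid metabolism that joins it, measured in OCI-AML3 cells, a line grown from a human acute myeloid leukaemia. They were taken by gene symbol from a table of 57905 gene identifiers, and each symbol had 1 identifier. All 36 had enough reads to be tested, among 13832 identifiers tested in all. The study holds 12 libraries in 4 groups of 3. Cells of the SA group received SA at 500 µM for 6 days and cells of the Vehicle group received the vehicle for the same time. SA is left as an abbreviation in the labels; it usually stands, in studies of heme, for succinylacetone, which blocks heme synthesis at the enzyme ALAD. Cells of the sgALAS1 group carried a guide against ALAS1, the first enzyme of heme synthesis, and cells of the sgSCR group carried a scrambled guide. Both guide groups were given doxycycline for 7 days to switch the guide on, which the SA and Vehicle groups were not stated to receive. The labels name 1 cell line and do not state the number of clones or the editing rate.

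The TCA cycle runs in the mitochondrial matrix. It oxidises the acetyl group that pyruvate dehydrogenase makes from pyruvate, and one of its intermediates, succinyl-CoA, is joined with glycine by ALAS1 to begin heme synthesis. Side reactions feed the cycle and drain it: carboxylation of pyruvate, exchange of amino groups with aspartate, glutamate and the branched-chain amino acids, and transport of the acids across the inner membrane by carriers of the SLC25 family. Several steps hold a 2-oxoacid dehydrogenase, a large complex that carries lipoic acid. In myeloid leukaemia the isocitrate dehydrogenases IDH1 and IDH2 and the aminotransferase BCAT1 are well known, and their reactions make or use 2-oxoglutarate.

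Libraries were made by QuantSeq, which sequences a tag near the 3′ end of polyadenylated RNA, so that a read counts a transcript whatever its length. They held 4658513 to 7339843 assigned reads. Levels are normalised CPM, read counts scaled to the size of the library, with means ± SD of n = 3 libraries. Changes are given on the log2 scale with an SE, the standard error. The SE was derived from the test, as the size of the change over the square root of the test's F statistic. It is therefore no measure of spread apart from the p-value. Each was tested by edgeR's quasi-likelihood method, and p-values were adjusted over all 13832 identifiers, with a threshold of 0.05. Whether replicates came from separate cultures is not stated, so the p-values measure the spread between these libraries only. In bulk RNA, a change in the share of cells that express a gene and a change in RNA per cell cannot be told apart. ALAS1 stood at 102 to 111 CPM in SA libraries, against 31.1 to 37.5 CPM in Vehicle libraries, and at 26.2 to 27.3 CPM in sgALAS1 libraries, against 37.4 to 42.0 CPM in sgSCR libraries. All 8 listed myeloid markers were tested, with a summed level of 2434 to 2562 CPM in SA, 1470 to 1683 CPM in Vehicle, 2025 to 2178 CPM in sgALAS1 and 1407 to 1765 CPM in sgSCR libraries. Of the 8, 3 rose and 1 fell with SA, and 2 rose and 1 fell with sgALAS1. LYZ made up much of the sum, with a mean of 1455 CPM in SA and 564 CPM in Vehicle libraries, and of 1030 CPM in sgALAS1 and 341 CPM in sgSCR libraries. PRTN3 fell in both arms, by 0.63 on the log2 scale with SA (adjusted p = 0.00378) and by 1.14 with sgALAS1 (adjusted p = 9.99e-07), both by edgeR. The B cell, erythroid and megakaryocyte, and epithelial lists summed to at most 1.59 CPM in any library. Of the T cell list, CD3D was tested, and the list summed to 0.583 to 1.78 CPM in SA libraries, 12.7 to 16.1 CPM in Vehicle libraries, 0 to 0.727 CPM in sgALAS1 libraries and 4.18 to 5.62 CPM in sgSCR libraries, with 2 of its 4 genes at 0 throughout. The stromal list reached 7.79 CPM. The part of these marker levels in the results below was not tested.

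Between SA and Vehicle 10 of the 36 genes passed the test, 4 of them upward (IDH1, PDPR, PC and BCAT2) and 6 downward (IDH2, PDK2, PCK2, GOT1, BCAT1 and BCKDHA). Over all tested identifiers 11.1% passed the same test, 4.83% upward and 6.24% downward. In sgALAS1 against sgSCR 8 of the 36 genes passed, with IDH1 and PDPR higher and IDH3B, SUCLG2, IDH2, PDK2, BCAT1 and DHTKD1 lower, against 11.7% of all identifiers, 4.88% upward and 6.85% downward. Without SA replicate 2, 6 genes passed in the SA arm, beside 1376 of 14432 identifiers, and without SA replicate 3 also 6, beside 954 of 14272. In the guide arm 3 passed without sgSCR replicate 2, beside 1134 of 14292 identifiers, which is a similar share. Without sgALAS1 replicate 3, 4 passed, beside 1269 of 14428. There were 5 without sgSCR replicate 1 (1153 of 14387 identifiers), sgALAS1 replicate 1 (1148 of 14284) or sgALAS1 replicate 2 (1270 of 14439). The same 5 genes passed in the same direction in both arms (IDH1, PDPR, IDH2, PDK2 and BCAT1), where 4.75% of all identifiers did so, and no gene passed in opposite directions. The median log2 fold change of the 36 genes was -0.13 with SA and -0.20 with sgALAS1, and over all identifiers it was -0.0095 with SA and -0.0034 with sgALAS1. In 15 genes the SA libraries lay wholly above or below the Vehicle libraries, which held for 27.4% of all identifiers. In 18 genes the sgALAS1 and sgSCR libraries did not overlap, which held for 29.1%.

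**Figure D1:**
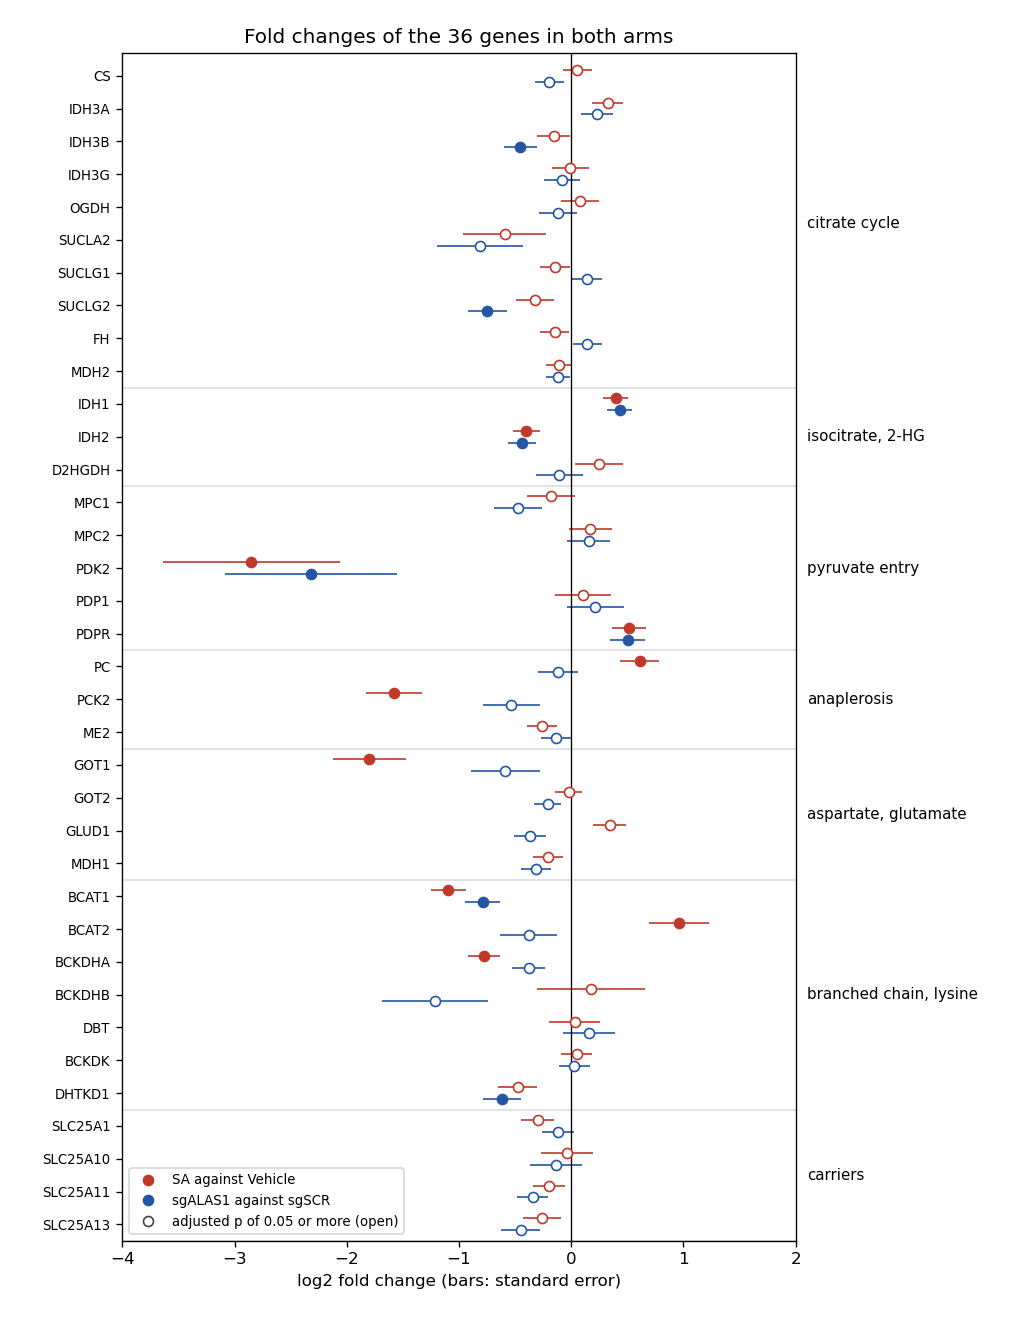
Log2 fold changes of the 36 genes, ordered by role, for SA against Vehicle (red, upper point of each pair) and sgALAS1 against sgSCR (blue, lower point), with standard errors; n = 3 libraries per group. Filled points passed edgeR's test at an adjusted p of 0.05. IDH1 and PDPR lie to the right of 0 and IDH2, PDK2 and BCAT1 to the left in both arms, while most enzymes of the cycle itself lie near 0.

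Of the 10 enzymes of the cycle proper, 0 passed the test with SA and 2 passed with sgALAS1. Over all identifiers 11.1% passed with SA and 11.7% with sgALAS1, and in a set of 10 genes these counts lie near those shares. At an unadjusted p under 0.05 by edgeR 1 of them differed with SA (IDH3A), and DESeq2 called 0. The share of all identifiers at the unadjusted threshold was not computed. The SA values were log2 fold changes between -0.59 (SUCLA2) and 0.33 (IDH3A). Citrate synthase (CS), which condenses acetyl-CoA with oxaloacetate, averaged 73.8 ± 8.37 CPM in SA libraries and 71.2 ± 4.22 CPM in Vehicle libraries. It averaged 73.5 ± 7.10 CPM in sgALAS1 libraries and 84.2 ± 5.11 CPM in sgSCR libraries. OGDH, the first subunit of the 2-oxoglutarate dehydrogenase complex that makes succinyl-CoA, had 0.08 with SA (SE 0.17) and -0.12 with sgALAS1 (SE 0.17) on the log2 scale, and neither passed. Fumarase (FH) had -0.15 with SA and 0.14 with sgALAS1, and the mitochondrial malate dehydrogenase MDH2 had -0.11 with SA and -0.12 with sgALAS1. None of these values passed the test.

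In sgALAS1 cells 2 cycle genes fell. SUCLG2 (ENSG00000172340, chromosome 3) encodes the subunit that gives succinyl-CoA ligase its preference for GTP; the ligase turns succinyl-CoA into succinate. It read 33.3, 37.2 and 44.1 CPM in sgALAS1 libraries, against 79.1, 67.0 and 46.1 CPM in sgSCR libraries. The groups did not overlap, though sgSCR replicate 3 lay close to the highest sgALAS1 library. On the log2 scale the difference was -0.75 (SE 0.17, adjusted p = 0.00358 by edgeR), and the call was kept whichever single library was left out, with adjusted p-values up to 0.0497. With SA it read 36.7, 52.9 and 46.2 CPM, against 61.7, 53.1 and 55.0 CPM with Vehicle. All SA libraries lay below all Vehicle libraries, with 1 pair nearly touching, and the log2 fold change was -0.32 (SE 0.17, adjusted p = 0.248 by edgeR).

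The other subunits of the ligase did not pass in either arm. SUCLA2, which stands in for SUCLG2 in the ATP form of the enzyme, had a log2 fold change of -0.59 with SA (SE 0.37) and of -0.81 with sgALAS1 (SE 0.38). It rested on 80 reads in SA, 140 in Vehicle, 66 in sgALAS1 and 118 in sgSCR libraries together, and without sgALAS1 replicate 1 it passed in the guide arm (-1.38, adjusted p = 0.0435 by edgeR). SUCLA2 lies on chromosome 13, where the median log2 fold change of 231 tested identifiers was -0.39 with SA and -0.36 with sgALAS1; its part in the SUCLA2 values was not tested. SUCLG1, the subunit common to both forms, averaged 91.7 ± 6.72 CPM in SA and 101 ± 8.93 CPM in Vehicle libraries, and 110 ± 14.8 CPM in sgALAS1 and 99.4 ± 14.9 CPM in sgSCR libraries.

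The NAD-dependent isocitrate dehydrogenase of the cycle is built from IDH3A, IDH3B and IDH3G. IDH3B (ENSG00000101365, chromosome 20) read 42.1, 41.4 and 39.7 CPM in sgALAS1 libraries, against 54.4, 52.7 and 62.0 CPM in sgSCR libraries. All 3 sgALAS1 libraries were lower than the 3 sgSCR libraries. The fitted value was -0.46 on the log2 scale (SE 0.15, adjusted p = 0.0395 by edgeR), and the call was lost without any 1 of the 6 libraries compared (adjusted p 0.0656 to 0.161). It was also lost without a filter on low counts (adjusted p = 0.0755) and with Vehicle in place of sgSCR (-0.32, adjusted p = 0.16), both by edgeR. With SA it read 43.1, 54.7 and 40.2 CPM, against 54.1, 47.2 and 52.2 CPM with Vehicle, with overlapping groups and a log2 fold change of -0.16 (adjusted p = 0.562 by edgeR). IDH3A, the catalytic subunit, had positive values in both arms, 0.33 with SA (SE 0.14) and 0.23 with sgALAS1 (SE 0.14), with no overlap of the groups in either arm and no call. Its counts ran with those of ACSBG1 on the opposite strand (Pearson r = 0.985 over 12 libraries, largest difference 34 reads), and reads of the overlapping genes cannot be told apart. IDH3G had -0.01 with SA and -0.08 with sgALAS1.

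IDH1 and IDH2 moved in opposite directions, and did so in both arms. IDH1 (ENSG00000138413, chromosome 2) is the NADP-dependent isocitrate dehydrogenase of the cytosol and peroxisomes, and IDH2 (ENSG00000182054, chromosome 15) is its mitochondrial counterpart; each turns isocitrate into 2-oxoglutarate. IDH1 read 180, 188 and 187 CPM in SA libraries, against 128, 150 and 143 CPM in Vehicle libraries. In the guide arm IDH1 read 210, 196 and 188 CPM with sgALAS1, against 146, 153 and 142 CPM with sgSCR. Every SA library and every sgALAS1 library was thus above all 6 control libraries. IDH1 thus had a log2 fold change of 0.40 with SA (SE 0.11, adjusted p = 0.0179) and 0.43 with sgALAS1 (SE 0.11, adjusted p = 0.00842), both by edgeR.

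IDH2 read 87.6, 83.2 and 74.7 CPM in SA libraries, against 117, 99.8 and 106 CPM in Vehicle libraries. It read 99.2, 86.9 and 90.9 CPM in sgALAS1 libraries, against 128, 134 and 114 CPM in sgSCR libraries. The groups of each arm did not overlap. IDH2 had a log2 fold change of -0.40 with SA (SE 0.12, adjusted p = 0.0316) and -0.44 with sgALAS1 (SE 0.12, adjusted p = 0.0151), both by edgeR. The ratio of IDH1 to IDH2 was 2.05, 2.26 and 2.50 in SA libraries, against 1.09, 1.51 and 1.35 in Vehicle libraries. It was 2.12, 2.26 and 2.07 in sgALAS1 libraries, against 1.14, 1.15 and 1.24 in sgSCR libraries. The ratio joins 2 genes that were already seen to separate in opposite directions, so it is a description and carries no test. D2HGDH, which oxidises D-2-hydroxyglutarate back to 2-oxoglutarate, had a log2 fold change of 0.25 with SA (SE 0.22) and of -0.11 with sgALAS1 (SE 0.21), with overlapping libraries and no call.

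Near the threshold, these calls depended on single libraries and on the fit. With SA, IDH1 lost its call when Vehicle replicate 1 or either of SA replicates 2 and 3 was left out (adjusted p up to 0.0656), and IDH2 lost it without any single library other than Vehicle replicate 2 (up to 0.163). In the guide arm, IDH1 lost its call without sgALAS1 replicate 1 (adjusted p = 0.0649 by edgeR), and IDH2 without sgSCR replicate 1 or 2 or sgALAS1 replicate 2 or 3 (up to 0.0922). With SA the calls of IDH1 (adjusted p = 0.0519) and IDH2 (0.0509) also ended without a filter on low counts, and that of IDH2 in a fit of the 2 groups alone (0.0654), all by edgeR. Set against Vehicle in place of sgSCR, IDH2 had -0.22 with sgALAS1 (adjusted p = 0.244 by edgeR).

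**Figure D2:**
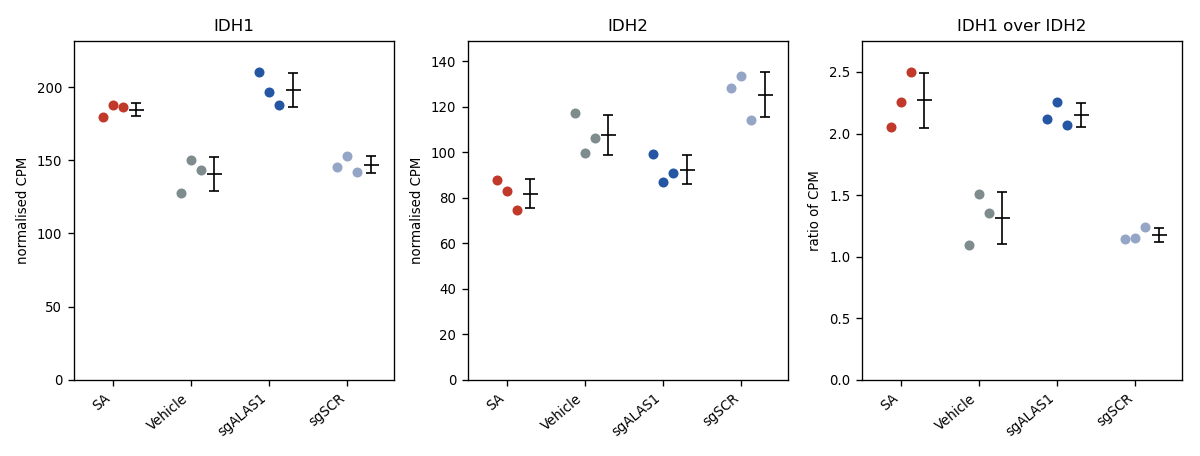
Normalised CPM of IDH1 and IDH2 and the ratio of IDH1 to IDH2 in each library of the 4 groups; dots are libraries and bars are means ± SD of 3. The ratio lies between 2.05 and 2.50 in SA and sgALAS1 libraries and between 1.09 and 1.51 in Vehicle and sgSCR libraries.

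Among the genes that govern the entry of pyruvate, PDK2 fell and PDPR rose in both arms. PDK2 (ENSG00000005882, chromosome 17) is a kinase that switches pyruvate dehydrogenase off. It gave 0, 0.398 and 1.14 CPM in SA libraries, against 3.31, 2.37 and 6.37 CPM in Vehicle libraries, and 0.309, 1.64 and 0.222 CPM in sgALAS1 libraries, against 4.98, 2.89 and 3.31 CPM in sgSCR libraries. No SA or sgALAS1 library reached the lowest control library. These levels rest on few reads: 9 in SA, 74 in Vehicle, 12 in sgALAS1 and 63 in sgSCR libraries together, and the count of 0 in SA replicate 1 allows up to 0.583 CPM (3 reads, counting error only). PDK2 had a log2 fold change of -2.85 with SA (SE 0.79, adjusted p = 0.0171) and -2.32 with sgALAS1 (SE 0.77, adjusted p = 0.0457), both by edgeR. With SA, leaving out Vehicle replicate 3 or either of SA replicates 1 and 2 ended the call (adjusted p up to 0.118). With sgALAS1 it was lost without any single library other than sgALAS1 replicate 2 (up to 0.179), and the fitted value ranged from -3.67 to -1.92.

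PDPR (ENSG00000090857, chromosome 16) is the regulatory subunit of the phosphatase that opposes these kinases. It read 56.5, 48.0 and 42.0 CPM in SA libraries, against 31.9, 35.2 and 35.4 CPM in Vehicle libraries. With sgALAS1 it read 49.2, 49.1 and 43.2 CPM, against 29.7, 31.7 and 38.4 CPM with sgSCR. The libraries of each arm separated without overlap. PDPR was 0.51 higher on the log2 scale with SA (SE 0.16, adjusted p = 0.0287) and 0.51 higher with sgALAS1 (SE 0.16, adjusted p = 0.0311), both by edgeR. The call was lost with SA without any single library other than SA replicate 3 (adjusted p up to 0.181), and with sgALAS1 without sgSCR replicate 1 or 2 or sgALAS1 replicate 1 or 2 (up to 0.142). Without a filter on low counts both calls of PDPR ended (adjusted p = 0.0572 with SA and 0.0554 with sgALAS1, by edgeR).

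The other genes of pyruvate entry passed no test. PDP1, the catalytic subunit that PDPR regulates, had 0.11 with SA and 0.21 with sgALAS1 on the log2 scale. PDP1 lies on chromosome 8, where 471 tested identifiers had a median of -0.25 with SA and -0.34 with sgALAS1. MPC1 and MPC2 form the mitochondrial pyruvate carrier. MPC1 had -0.18 with SA (SE 0.21) and -0.48 with sgALAS1 (SE 0.21), and MPC2 had 0.17 with SA and 0.16 with sgALAS1.

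Of the anaplerotic enzymes, which refill or drain the cycle, PCK2 fell and PC rose with SA. PCK2 (ENSG00000100889, chromosome 14) is the mitochondrial phosphoenolpyruvate carboxykinase and takes oxaloacetate out of the cycle. It read 23.5, 28.1 and 26.6 CPM in SA libraries, against 77.1, 110 and 45.8 CPM in Vehicle libraries. All SA libraries were low and close together, and the Vehicle libraries were spread widely above them. The log2 fold change was -1.58 (SE 0.25, adjusted p = 5.96e-05 by edgeR), with adjusted p-values up to 0.00182 when single libraries were left out. In the guide arm PCK2 read 34.6, 33.1 and 25.9 CPM with sgALAS1, against 25.7, 67.0 and 42.5 CPM with sgSCR. Here sgSCR replicate 1 lay below every sgALAS1 library, and the log2 fold change was -0.53 (SE 0.25, adjusted p = 0.183 by edgeR). Without sgSCR replicate 1 it was -0.81 (adjusted p = 0.0302 by edgeR), and without a filter on low counts PCK2 also passed (adjusted p = 0.0308).

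PC (ENSG00000173599, chromosome 11), pyruvate carboxylase, makes oxaloacetate from pyruvate. It read 29.5, 30.4 and 38.8 CPM in SA libraries, against 22.6, 17.6 and 24.6 CPM in Vehicle libraries. It read 31.6, 30.4 and 25.9 CPM in sgALAS1 libraries, against 32.9, 33.4 and 29.4 CPM in sgSCR libraries. SA libraries lay above Vehicle libraries, and the guide groups overlapped. PC had a log2 fold change of 0.61 with SA (SE 0.18, adjusted p = 0.0227) and -0.12 with sgALAS1 (SE 0.17, adjusted p = 0.746), both by edgeR. The call with SA ended when SA replicate 3 or Vehicle replicate 2 was left out (adjusted p up to 0.155). PC counts ran with those of LRFN4 on the opposite strand (Pearson r = 0.947 over 12 libraries, largest difference 29 reads), LRFN4 itself had 0.53 with SA (adjusted p = 0.0344 by edgeR), and the reads of the overlapping genes cannot be told apart. ME2, the mitochondrial malic enzyme, had -0.26 with SA (SE 0.13) on the log2 scale and -0.13 with sgALAS1 (SE 0.13), with no call.

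The aspartate and glutamate enzymes carry amino groups between the cycle and amino acids, and MDH1 with GOT1 forms the cytosolic side of the malate-aspartate shuttle. GOT1 (ENSG00000120053, chromosome 10), the cytosolic aspartate aminotransferase, read 4.27, 5.57 and 3.08 CPM in SA libraries, against 13.2, 18.3 and 13.3 CPM in Vehicle libraries. The groups lay far apart. GOT1 fell by 1.80 on the log2 scale (SE 0.33, adjusted p = 3.00e-04 by edgeR), and the call was kept whichever single library was left out (adjusted p up to 0.00489). With sgALAS1 it read 8.95, 10.7 and 3.99 CPM, against 13.3, 13.2 and 9.59 CPM with sgSCR. These groups overlapped, and the log2 fold change was -0.59 (SE 0.31, adjusted p = 0.24 by edgeR).

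The mitochondrial partner GOT2 averaged 80.8 ± 5.33 CPM in SA and 82.0 ± 3.55 CPM in Vehicle libraries, and 74.3 ± 2.36 CPM in sgALAS1 and 85.9 ± 5.81 CPM in sgSCR libraries. Its sgALAS1 libraries lay below all sgSCR libraries, without a call (-0.21, SE 0.12). GLUD1, glutamate dehydrogenase, which makes 2-oxoglutarate from glutamate, had values of opposite sign in the 2 arms, 0.34 with SA (SE 0.15) and -0.37 with sgALAS1 (SE 0.15), with no call in either. It passed with SA without Vehicle replicate 1 (0.46, adjusted p = 0.0489 by edgeR) and with sgALAS1 without sgSCR replicate 3 (-0.49, adjusted p = 0.0444 by edgeR). MDH1, the cytosolic malate dehydrogenase, had -0.20 with SA (SE 0.14) and -0.31 with sgALAS1 (SE 0.14), and passed in the guide arm without sgSCR replicate 3 (-0.45, adjusted p = 0.0408 by edgeR).

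Of the genes of branched-chain amino acid and lysine breakdown, BCAT1 fell in both arms. BCAT1 (ENSG00000060982, chromosome 12), the cytosolic aminotransferase that moves the amino group of leucine, isoleucine and valine to 2-oxoglutarate, read 57.5, 54.9 and 46.5 CPM in SA libraries, against 111, 141 and 87.4 CPM in Vehicle libraries. It read 50.5, 56.9 and 64.0 CPM in sgALAS1 libraries, against 108, 103 and 85.0 CPM in sgSCR libraries. Every SA and sgALAS1 library was lower than all 6 control libraries. BCAT1 had a log2 fold change of -1.09 with SA (SE 0.15, adjusted p = 9.22e-06) and -0.79 with sgALAS1 (SE 0.15, adjusted p = 5.68e-04), both by edgeR. Both calls were kept whichever single library was left out, with adjusted p-values up to 2.91e-04 with SA and 0.00984 with sgALAS1.

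BCAT2 (ENSG00000105552, chromosome 19), the mitochondrial form, rose with SA and did not pass with sgALAS1. It read 13.2, 9.75 and 23.0 CPM in SA libraries, against 7.86, 7.28 and 8.67 CPM in Vehicle libraries. With sgALAS1 it read 13.3, 11.8 and 15.7 CPM, against 17.1, 19.6 and 16.2 CPM with sgSCR. SA libraries lay above Vehicle libraries, with SA replicate 3 highest, and sgALAS1 libraries lay below sgSCR libraries. BCAT2 had a log2 fold change of 0.96 with SA (SE 0.27, adjusted p = 0.0171) and -0.38 with sgALAS1 (SE 0.26, adjusted p = 0.388), both by edgeR. With SA it was 0.54 without SA replicate 3 (adjusted p = 0.266) and 0.90 without Vehicle replicate 2 (adjusted p = 0.0737), both by edgeR.

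The branched-chain keto acid dehydrogenase takes over the keto acids that these aminotransferases make. BCKDHA (ENSG00000248098, chromosome 19), a subunit of its first component, read 50.5, 47.8 and 66.5 CPM in SA libraries, against 108, 93.6 and 81.2 CPM in Vehicle libraries. It read 67.3, 55.4 and 57.0 CPM with sgALAS1, against 75.7, 81.0 and 77.5 CPM with sgSCR. Neither arm showed overlap. The log2 fold change was -0.78 with SA (SE 0.14, adjusted p = 3.82e-04), kept without any single library, and -0.38 with sgALAS1 (SE 0.14, adjusted p = 0.0842; 0.0475 in a fit of the 2 groups alone), both by edgeR. The counts listed for BCKDHA equalled those of the overlapping identifier AC011462.1 on the same strand in 6 of 12 libraries and differed by at most 6 reads elsewhere, so the reads of these 2 identifiers cannot be told apart. EXOSC5 on the opposite strand followed them less closely (Pearson r = 0.902, differences of up to 137 reads), with -0.31 with SA (adjusted p = 0.15) and -0.50 with sgALAS1 (adjusted p = 0.0137), both by edgeR.

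The other subunits and regulators passed no test. BCKDHB, the partner of BCKDHA, averaged 2.98 ± 0.261 CPM in SA libraries and 2.66 ± 0.659 CPM in Vehicle libraries. In the guide arm it averaged 2.44 ± 0.763 CPM with sgALAS1 and 5.64 ± 1.17 CPM with sgSCR. The guide groups did not overlap (-1.21, SE 0.47, adjusted p = 0.0954 by edgeR), and the level rests on 39 reads in sgALAS1 and 96 reads in sgSCR libraries together. DBT, the lipoic acid carrying core of the complex, had 0.03 with SA and 0.16 with sgALAS1, and BCKDK, the kinase that switches it off, had 0.05 with SA and 0.03 with sgALAS1.

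DHTKD1 (ENSG00000181192, chromosome 10), the 2-oxoadipate dehydrogenase of lysine breakdown, is the remaining gene of this set that passed. It read 37.0, 33.8 and 31.9 CPM in sgALAS1 libraries, against 49.6, 57.2 and 50.6 CPM in sgSCR libraries. It read 28.4, 28.9 and 22.9 CPM with SA, against 46.4, 36.2 and 28.3 CPM with Vehicle. The guide groups did not overlap, and in the SA arm Vehicle replicate 3 lay within the SA range. DHTKD1 had a log2 fold change of -0.61 with sgALAS1 (SE 0.17, adjusted p = 0.0145) and -0.48 with SA (SE 0.17, adjusted p = 0.073), both by edgeR. The call with sgALAS1 was lost without sgSCR replicate 2 or sgALAS1 replicate 3 (adjusted p up to 0.0877), and with SA the gene passed without Vehicle replicate 3 (-0.63, adjusted p = 0.024 by edgeR). The size depended on the control: with Vehicle in place of sgSCR the sgALAS1 value was -0.11 (adjusted p = 0.729), and with sgSCR in place of Vehicle the SA value was -0.98 (adjusted p = 1.84e-04), both by edgeR.

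**Figure D3:**
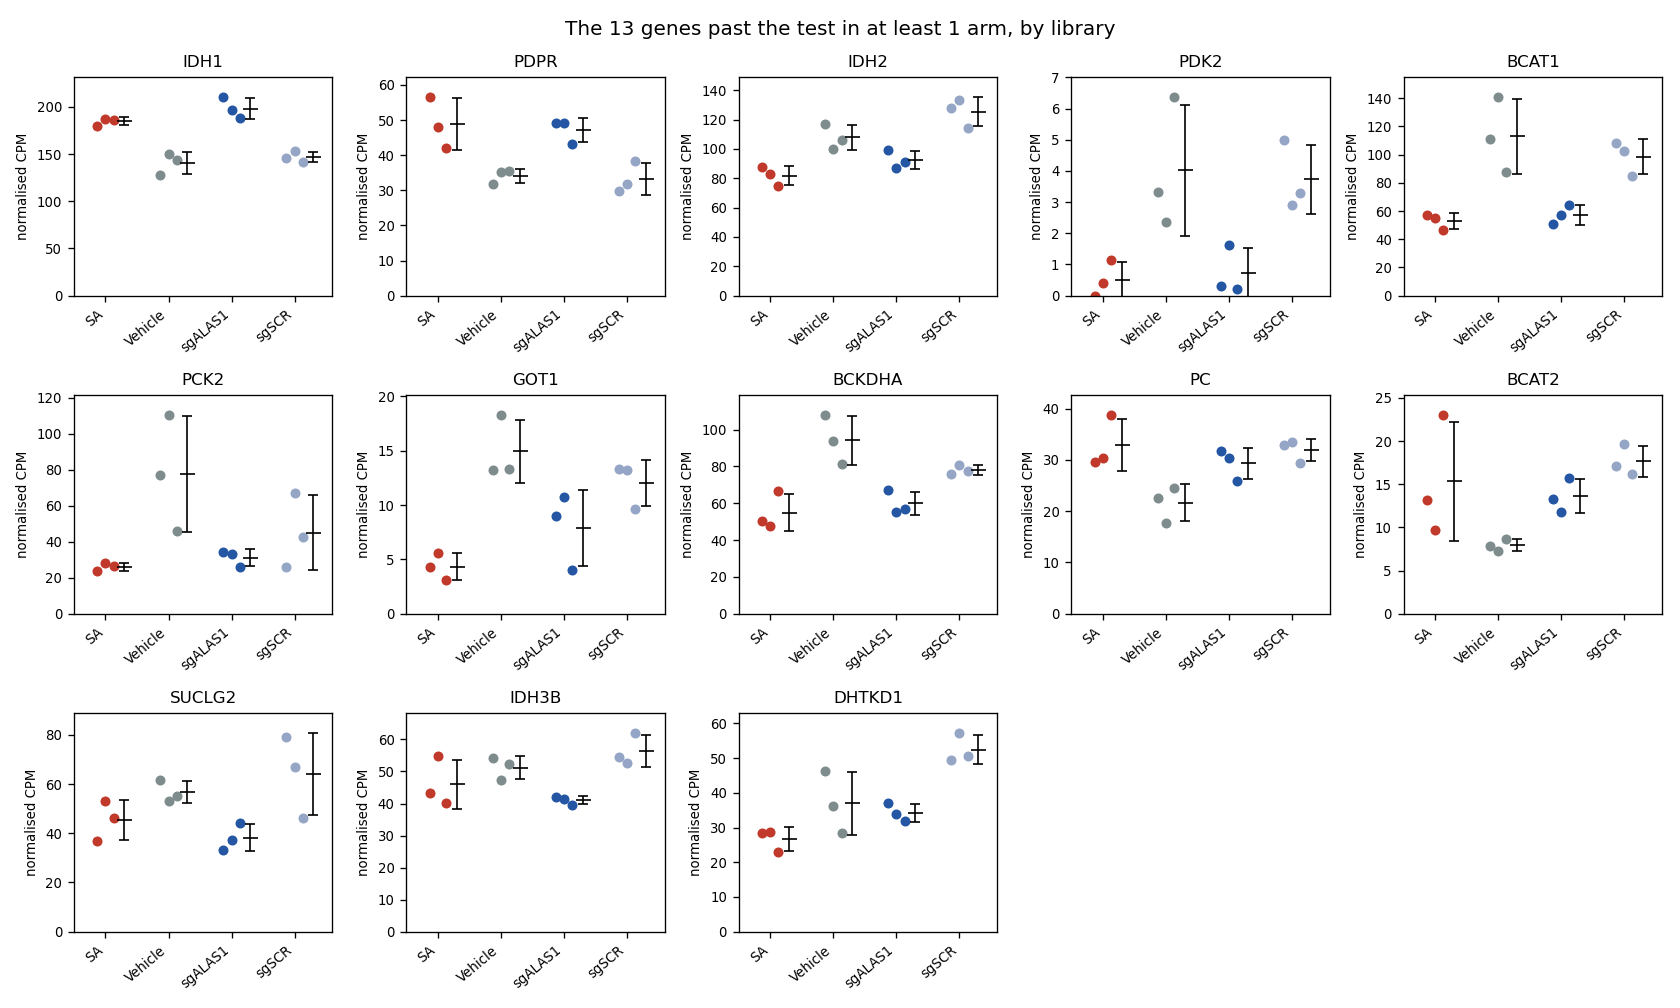
Normalised CPM in each library for the 13 genes past edgeR's test in at least 1 arm, in the order SA, Vehicle, sgALAS1 and sgSCR; dots are libraries, bars are means ± SD of 3, and each panel has its own scale from 0. The first 5 panels show the genes called in both arms. In PCK2 the Vehicle libraries spread from 45.8 to 110 CPM, while the SA libraries stay between 23.5 and 28.1 CPM.

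None of the 4 mitochondrial carriers passed, though all 8 fold changes were negative. SLC25A1, which exports citrate, had -0.30 with SA (SE 0.14) and -0.12 with sgALAS1 (SE 0.14). SLC25A10, the dicarboxylate carrier, had -0.04 with SA and -0.13 with sgALAS1. SLC25A11, which exchanges 2-oxoglutarate for malate, had -0.20 with SA (SE 0.14) and -0.34 with sgALAS1 (SE 0.14). SLC25A13, an aspartate-glutamate exchanger, had -0.26 with SA (SE 0.17) and -0.45 with sgALAS1 (SE 0.17), and its libraries did not overlap in either arm. At an unadjusted p under 0.05 by edgeR 1 carrier differed with SA (SLC25A1) and 2 with sgALAS1 (SLC25A11 and SLC25A13), and DESeq2 called 0 in both arms. Here too the share of all identifiers at the unadjusted threshold was not computed. In total 23 of the 36 genes passed in neither arm, with log2 fold changes between -0.59 and 0.34 with SA and between -1.21 and 0.23 with sgALAS1.

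The genes that fell furthest with SA, apart from PDK2, were PCK2, GOT1 and BCAT1, and a list of 20 amino acid and stress response genes around the transcription factor ATF4 was measured beside them. Its summed level was 1320, 1328 and 1239 CPM in SA libraries, against 2911, 3473 and 1658 CPM in Vehicle libraries. It was 1302, 1253 and 1283 CPM in sgALAS1 libraries, against 1266, 2058 and 1607 CPM in sgSCR libraries. Vehicle replicate 3 and sgSCR replicate 1 were the lowest of their groups in the list, and they were also the lowest of their groups in PCK2. In BCAT1 sgSCR replicate 1 was the highest of its group (108 CPM). In GOT1 sgSCR replicate 1 stood at 13.3 CPM, beside 13.2 CPM in sgSCR replicate 2 and 9.59 CPM in sgSCR replicate 3. Vehicle replicate 3 was the lowest of its group in BCAT1 (87.4 CPM). In GOT1 it stood at 13.3 CPM, beside 13.2 CPM in Vehicle replicate 1. With SA 1 gene of the list rose and 15 fell, with sgALAS1 5 fell, and in sgSCR against Vehicle 7 fell. Over all identifiers the shares that passed were 11.1%, 11.7% and 1.43% in these comparisons. ATF4 itself had a log2 fold change of -1.05 with SA (adjusted p = 2.62e-05) and of -0.47 with sgALAS1 (adjusted p = 0.0476), both by edgeR. Its guide groups overlapped, with sgSCR replicate 1 at 203.8 CPM and the sgALAS1 libraries at 166.5 to 204.4 CPM. In sgSCR against Vehicle ATF4 had -0.71 (adjusted p = 0.0111 by edgeR). The part of this list in the changes of PCK2, GOT1 and BCAT1 was not tested.

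**Figure D4:**
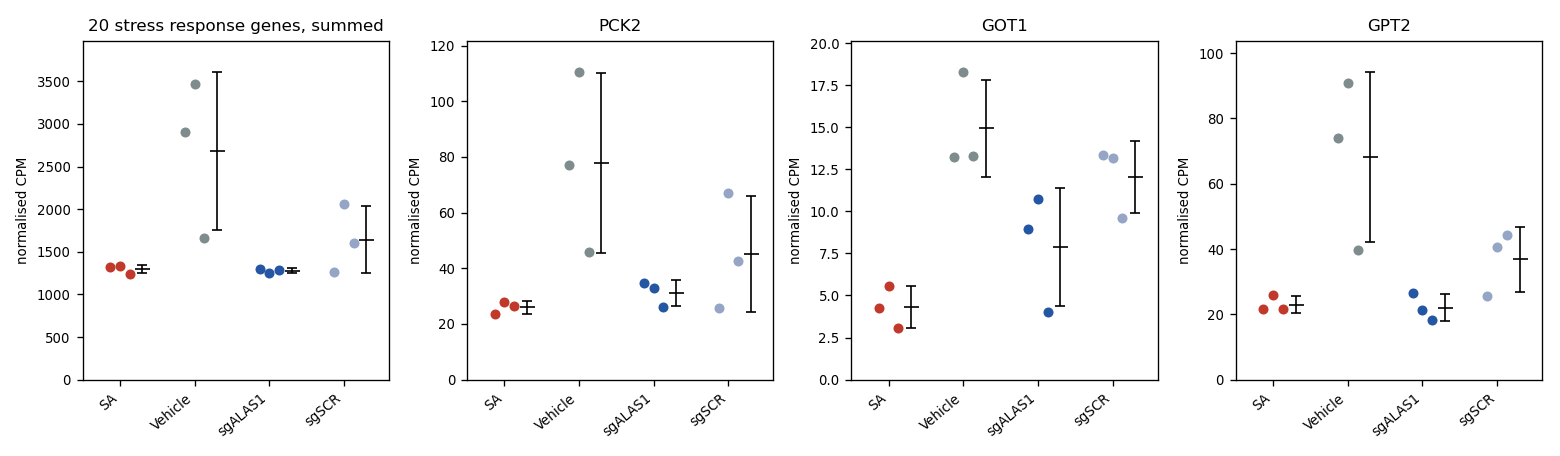
Summed CPM of 20 stress response genes, and CPM of PCK2, GOT1 and GPT2, in each library; dots are libraries and bars are means ± SD of 3. SA and sgALAS1 libraries hold summed levels between 1239 and 1328 CPM, and Vehicle replicates 1 and 2 stand at 2911 and 3473 CPM.

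Since ATF4 binds, as a dimer with C/EBP proteins, a short element known as CARE, the promoters of the genes were searched for its letters. RefSeq promoter windows on GRCh38.p14, from 250 bases before to 50 bases after a gene start, were at hand for 33 of the 36 genes, with 46 windows in all, since some genes have several starts. The letters TGATGNAA, read on both strands, stood in 3 of these 46 windows (6.52%), 1 each of BCAT1, GOT1 and SLC25A11, and in 3.62% of 35116 windows of the same length over all genes. BCAT1 and GOT1 fell with SA, and SLC25A11 passed no test. PCK2, IDH2, PDK2 and BCKDHA also fell with SA, and none of their windows held these letters. The 3 windows with a match are shown. Each is written 5′ to 3′ on the gene's strand, the minus strand in all 3 genes, and capitals mark the matches. In BCAT1 (chr12:24949052-24949351) the CARE match begins 48 bases before the start and an E-box match (CACGTG) follows 14 bases after it. In GOT1 (chr10:99430575-99430874) the match lies on the opposite strand, 198 bases before the start. In SLC25A11 (chr17:4939997-4940296) a match on the opposite strand begins at -71 and an NRF1 motif follows at -17.
BCAT1: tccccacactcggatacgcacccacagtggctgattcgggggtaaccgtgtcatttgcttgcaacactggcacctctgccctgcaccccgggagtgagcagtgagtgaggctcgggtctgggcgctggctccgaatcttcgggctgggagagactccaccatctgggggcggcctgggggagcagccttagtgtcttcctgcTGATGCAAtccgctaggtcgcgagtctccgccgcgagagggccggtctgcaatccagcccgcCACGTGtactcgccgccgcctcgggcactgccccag
GOT1: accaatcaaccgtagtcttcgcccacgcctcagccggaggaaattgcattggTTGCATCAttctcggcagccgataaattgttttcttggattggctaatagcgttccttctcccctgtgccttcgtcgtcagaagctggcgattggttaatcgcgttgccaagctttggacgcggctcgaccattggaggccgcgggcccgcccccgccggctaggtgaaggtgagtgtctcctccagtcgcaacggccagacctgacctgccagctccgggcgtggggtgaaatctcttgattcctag
SLC25A11: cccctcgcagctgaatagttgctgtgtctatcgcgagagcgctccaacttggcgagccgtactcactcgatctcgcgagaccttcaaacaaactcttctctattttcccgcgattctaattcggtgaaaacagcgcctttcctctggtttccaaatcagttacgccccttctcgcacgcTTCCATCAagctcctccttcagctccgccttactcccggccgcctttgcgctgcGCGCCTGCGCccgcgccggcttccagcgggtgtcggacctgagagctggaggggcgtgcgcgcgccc
This BCAT1 window is 1 of several in the table, and 3′ reads do not show which start was used. The bases just after this start were not found whole in a GENCODE 29 transcript of BCAT1, while those of the GOT1 and SLC25A11 windows were found in transcripts of their genes. A match is a run of letters and was not tested as a binding site.

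The other motifs searched were spread over genes that rose, fell or passed no test. They too were read on both strands, and in the windows printed no match overlaps another. The E-box CACGTG, bound by MYC and related factors, stood in 4 of 46 windows (8.70%), those of BCAT1, PDK2, PDPR and SLC25A13, against 7.26% of all windows. PDK2 and BCAT1 fell in both arms and PDPR rose in both. The NRF1 motif, named for a regulator of mitochondrial genes, stood in 7 of 46 windows (15.2%), against 5.78% of all windows. These were D2HGDH, GLUD1, IDH3A, IDH3G, MPC2, SLC25A11 and SUCLA2, none of which passed in either arm. The letters TGANNNNGC, a loose form of the antioxidant response element, stood in 19 of 46 windows (41.3%), near the 41.8% of all windows. TNAAGGTCA, bound by estrogen-related receptors, stood in 0 of 46, against 0.951%.

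The difference between the arms, taken as the sgALAS1 effect minus the SA effect, passed the test in 0 of the 36 genes, against 1.19% of all identifiers. At an unadjusted p under 0.05 by edgeR 6 genes differed (PC, PCK2, GOT1, GLUD1, BCAT2 and BCKDHB). The share of all identifiers at this unadjusted threshold was not computed, so this count has no background beside it. The lowest adjusted p was that of BCAT2 (-1.34, SE 0.37, adjusted p = 0.073 by edgeR), and DESeq2 called it (-1.35, adjusted p = 0.0494). PCK2 differed by 1.05 (SE 0.35, adjusted p = 0.18) and GOT1 by 1.21 (SE 0.45, adjusted p = 0.235), both by edgeR. PCK2 passed without Vehicle replicate 3 or sgSCR replicate 2 (adjusted p down to 0.0287), BCAT2 without SA replicate 2 (0.0177) and GLUD1 without Vehicle replicate 1 or sgSCR replicate 3 (down to 0.0218), all by edgeR. Without a filter on low counts PCK2 (1.06, adjusted p = 0.00184), BCAT2 (-1.33, 0.033) and GLUD1 (-0.70, 0.0315) passed by edgeR, beside 277 of 29319 identifiers. For the 5 genes called in both arms the differences were 0.04 for IDH1 (SE 0.16), -0.04 for IDH2 (SE 0.17), 0.53 for PDK2 (SE 1.12), -0.01 for PDPR (SE 0.22) and 0.30 for BCAT1 (SE 0.22).

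The control groups differed from each other in some of these genes, which bears on each arm's values since every fold change is set against its own control. In sgSCR against Vehicle BCAT2 was the 1 gene of 36 that passed (1.15, SE 0.26, adjusted p = 0.0163 by edgeR), against 1.43% of all identifiers. It stood at 17.1, 19.6 and 16.2 CPM in sgSCR libraries, against 7.86, 7.28 and 8.67 CPM in Vehicle libraries. The call was lost without Vehicle replicate 2, sgSCR replicate 1 or sgSCR replicate 2 (adjusted p up to 0.102). PC was 0.56 higher in sgSCR (SE 0.18, adjusted p = 0.118) and PCK2 was -0.78 (SE 0.24, adjusted p = 0.111), both by edgeR, and the 2 groups did not overlap in 9 of the 36 genes, against 17.1% of all identifiers. PCK2 passed without Vehicle replicate 3 or sgSCR replicate 2, OGDH and DHTKD1 without Vehicle replicate 1 (adjusted p 0.0165 and 0.0315 by edgeR). PCK2 also passed without a filter on low counts (adjusted p = 2.87e-04) and with the replicate number as a block (0.0295), both by edgeR. Set against sgSCR in place of Vehicle, the SA value was 0.05 for PC (adjusted p = 0.896) and -0.19 for BCAT2 (adjusted p = 0.683), both by edgeR. With Vehicle in place of sgSCR the sgALAS1 values of PCK2 (-1.31, adjusted p = 3.21e-04), GOT1 (-0.90, adjusted p = 0.0436) and BCKDHA (-0.65, adjusted p = 0.00161) passed, by edgeR.

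Of 64 further genes of these pathways, 54 were tested. With SA 5 rose and 7 fell (22.2%), with a median log2 fold change of -0.17, and in sgALAS1 against sgSCR 3 rose and 4 fell (13%), with a median of -0.07. Over all tested identifiers the shares were 11.1% with SA and 11.7% with sgALAS1, so the second share lay near that of all identifiers. Of 16 tested cycle and pyruvate dehydrogenase genes, 3 fell with SA and none passed with sgALAS1. These were the kinase PDK1 (-0.90, adjusted p = 8.43e-04), DLAT, the lipoic acid carrying core of pyruvate dehydrogenase (-0.51, adjusted p = 0.0437), and ACLY, which splits citrate in the cytosol (-0.43, adjusted p = 0.0229), all by edgeR. DLST and DLD, which complete the 2-oxoglutarate dehydrogenase complex, had -0.03 and -0.23 with SA.

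Of 10 tested genes of anaplerosis and keto acids, 2 rose and 2 fell with SA (40%), and 2 fell with sgALAS1 (20%). The shares over all identifiers were 11.1% with SA and 11.7% with sgALAS1. GPT2, the mitochondrial alanine aminotransferase, read 21.6, 25.9 and 21.6 CPM in SA libraries, against 73.9, 90.9 and 39.6 CPM in Vehicle libraries. It read 26.6, 21.3 and 18.4 CPM in sgALAS1 libraries, against 25.5, 40.7 and 44.3 CPM in sgSCR libraries. The SA arm showed no overlap, while sgSCR replicate 1 lay within the sgALAS1 range. The log2 fold change was -1.57 with SA (SE 0.23, adjusted p = 1.34e-05) and -0.73 with sgALAS1 (SE 0.23, adjusted p = 0.0343), both by edgeR, and sgSCR against Vehicle gave -0.88 for GPT2 (adjusted p = 0.0296). OXCT1, which activates ketone bodies with succinyl-CoA, fell with SA (-0.92, adjusted p = 3.41e-04), and the cytosolic malic enzyme ME1 rose (0.96, adjusted p = 0.00336), both by edgeR.

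Of 18 tested genes further down the branched-chain pathway, 1 rose with SA (5.56%) and 2 rose with sgALAS1 (11.1%). Over all identifiers 11.1% passed with SA and 11.7% with sgALAS1, so neither count lay above those shares. ACAD8, the isobutyryl-CoA dehydrogenase of valine breakdown, read 92.9, 91.9 and 87.7 CPM in SA libraries, against 51.0, 54.5 and 59.1 CPM in Vehicle libraries. It read 56.6, 45.4 and 47.0 CPM in sgALAS1 libraries, against 29.7, 37.3 and 32.6 CPM in sgSCR libraries. Both arms separated without overlap, with log2 fold changes of 0.73 with SA (adjusted p = 4.55e-04) and 0.58 with sgALAS1 (adjusted p = 0.00601), both by edgeR. The controls differed too: sgSCR against Vehicle gave -0.72 for ACAD8 (adjusted p = 0.00417 by edgeR), also without overlap. The sgALAS1 mean (49.7 CPM) thus lay below the Vehicle mean (54.9 CPM). PPM1K, the phosphatase that switches the keto acid dehydrogenase on, rose with sgALAS1 (1.34, adjusted p = 0.0094 by edgeR). It read 15.4, 19.8 and 17.1 CPM in sgALAS1 libraries, against 2.39, 7.39 and 10.6 CPM in sgSCR libraries. The sgSCR values spread widely and rest on 12, 46 and 64 reads. Of 10 tested carriers, 2 rose and 2 fell with SA (40%), and 1 rose and 2 fell with sgALAS1 (30%). UCP2, a carrier of the inner membrane, averaged 46.0 ± 3.16 CPM in SA and 73.7 ± 8.81 CPM in Vehicle libraries, and 36.6 ± 1.18 CPM in sgALAS1 and 89.9 ± 5.50 CPM in sgSCR libraries. It fell by 0.68 on the log2 scale with SA (adjusted p = 8.03e-04) and by 1.30 with sgALAS1 (adjusted p = 2.94e-08), both by edgeR.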

How the data were processed

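RNA of OCI-AML3 cells was sequenced from 3′ tags (QuantSeq, single-end, per the labels' protocols). Per the submitters' processing notes, the tools were bcl2fastq 2.17.1.14, cutadapt 1.14, HISAT2 2.0.4 and featureCounts of Subread 2.0.0, with build hg19, and edgeR 3.34.0 and limma 3.48.3 are also listed. As for the annotation release, strand setting and handling of reads with several matches, these were not given in the sources used here. What was deposited is a raw count per Ensembl gene, not normalised, and the library names in the labels tied each column to its sample.

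Identifiers were named from a current gene table (51996) or GENCODE 29 (342), and 5567 had no name. R 4.3.3 with edgeR 4.0.16 (filterByExpr by group, TMM, quasi-likelihood F-test, two-sided, all 12 libraries fitted by group) tested 13832 identifiers, with Benjamini-Hochberg adjustment at 0.05. The fitted biological coefficient of variation came to 16.4%. The fit was tested on simulated data. DESeq2 1.42.0, other size factors, no filter, the replicate number as a block, other library totals, fits of 2 groups and leaving out each library served as alternatives. Same-numbered libraries were not more alike (residual correlations -0.0661 to 0.0572) than others (-0.152 to 0.109), so the numbers were not taken as pairs.

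The members, the lists and the alternatives were chosen with earlier results of these data known. All members have a value in the text or within a stated range. The rule for naming genes of the other lists was the smallest p, up to 3 for each list and comparison. Not all of the genes it picks were named, and ATF4, DLST and DLD were named outside it. A gene that this rule names is not reported here. The depth limits genes with few reads, such as PDK2 and BCKDHB. Promoter letters came from RefSeq windows on GRCh38.p14, and overlaps between genes from GENCODE 29.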

Additional observations from a re-analysis of the deposited data

How the results depend on the processing

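The count of the 36 genes past the threshold was 10 for SA against Vehicle and 8 for sgALAS1 against sgSCR, and with single libraries left out it ranged from 6 to 8 and from 3 to 8. Over all identifiers these fits gave 954 to 1595 and 1134 to 1415 calls. For the difference between the arms they gave 0 to 1 of the 36 genes and 109 to 340 identifiers, and for sgSCR against Vehicle 0 to 3 genes and 84 to 276 identifiers. Without a filter on low counts the SA arm called 7 of the 36 genes (IDH1, IDH2 and PDPR were lost) and the guide arm 7 (PDPR and IDH3B were lost, PCK2 was gained), the difference called 3 of the 36 genes and 277 identifiers, and sgSCR against Vehicle called 2 genes. DESeq2 called 1 gene for the difference and 300 identifiers for sgSCR against Vehicle. With the replicate number as a block, 10, 8, 0 and 2 of the 36 genes passed in the 4 comparisons, the added one being PCK2 in sgSCR against Vehicle. The cause of these shifts was not tested. Of 985 values recomputed for 72 gene results, 881 kept their direction and side of the threshold, 55 lost and 28 gained the call, and 21 changed sign. Only a result called in the main fit could lose a call, and most of the 72 were not called there. The 55 losses therefore do not give a rate of loss out of 985. The swaps of control group were added after the data were seen. With sgSCR in place of Vehicle the SA values of BCAT2, GLUD1 and BCKDHB were -0.19, -0.044 and -0.91, and with Vehicle in place of sgSCR the sgALAS1 values of PC, BCAT2 and GLUD1 were 0.44, 0.77 and 0.021. The second swap also ended the sgALAS1 calls of IDH2, IDH3B and DHTKD1 (-0.22, -0.32 and -0.11), and the first ended the SA call of PC (0.05). The difference for PDPR was 0.0023 without a filter. With single libraries left out, these values crossed 0: BCKDHB with SA (-0.015 to 0.33), SLC25A1 with sgALAS1 (-0.20 to 0.018), and the differences of IDH1 (-0.016 to 0.092), IDH2 (-0.11 to 0.013), PDK2 (-0.82 to 1.88), PDPR (-0.12 to 0.11) and DHTKD1 (-0.34 to 0.014). Summing identifiers per symbol gave no separate value, as each symbol had 1. Small changes and genes of few reads, such as PDK2, are limited by depth and by 3 libraries per group.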
